A study of Mus musculus with 2 samples.

Results

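The interferon-induced genes and interferon regulatory factors were compared between wounded back skin of mice that lack beta-catenin in keratinocytes (BKO) and wounded back skin of their littermate controls (CON). Members were chosen by name from the gene symbols of the array files: symbols that begin with Ifi, Ifn, Oas, Isg, Iigp, Igtp, Irgm or Tgtp, those of the Irf and Gbp families, Mx1 and Mx2, and the single names Rsad2, Usp18, Ddx58, Dhx58, Xaf1, Bst2 and Eif2ak2. This gave 120 probes for 76 genes, of 25697 probes for 17874 genes on the array. The BKO mice were C57BL6, carried floxed beta-catenin alleles (fl/fl) with a Cre driven by the keratin 14 (K14) promoter, and the CON mice were C57BL6 with the same fl/fl alleles and no Cre named. All mice were 3 months old and the samples carry the note low calcium diet. They had full-thickness wounds made with a 6 mm punch, and the wounded skin was taken with an 8 mm punch 3 days later. Each group was measured on 1 Illumina bead array of RNA pooled from 3 mice, so no difference has a replicate check, no test can be made, and the spread between animals is unknown.

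Interferons are secreted proteins that bind cell surface receptors and signal through JAK kinases and STAT transcription factors. Type I interferons (Ifna, Ifnb1 and relatives) and interferon gamma (Ifng) act through separate receptors, and the complexes they activate bind an interferon-stimulated response element (ISRE) or a gamma-activated site (GAS) near their target genes. The targets include antiviral proteins, GTPases that act against intracellular microbes, and transcription factors of the interferon regulatory factor (IRF) family that feed back on the pathway. In skin, keratinocytes, Langerhans cells, macrophages and lymphocytes all respond to interferons.

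The values are bead intensities on a linear scale as deposited without normalization, and folds are BKO over CON on a log2 scale after background correction and quantile normalization. A gene was taken as detected where its brightest probe reached 177.9 in BKO or 181.8 in CON, the intensities that fewer than 0.01 of the negative control beads reach. Detected probes numbered 12425 in BKO and 12488 in CON, and the median intensity of all probes was 173.5 in BKO and 177.3 in CON. Krt14, the keratin of basal keratinocytes, read 34421 in BKO and 34899 in CON, near the top of the scale on both arrays of this skin. The brighter Ctnnb1 (beta-catenin) probe read 2301 in BKO and 2630 in CON (log2 fold 0.01), and the other probe read 985 in BKO and 1267 in CON (-0.17). Neither checks the knockout, because where these probes lie relative to the deleted part is not given and whole skin includes cells that keep the gene.

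Of the 76 member genes, 40 were detected on at least 1 array, 36 of them on both arrays, and the other 36 genes on neither. Most detected members were modestly lower in BKO. Of the 40, 35 had a log2 fold below 0 (87.5%), against 49.3% of all 9710 detected genes, and the median was -0.19 for the members and 0.0 for all detected genes. At least 1.5-fold lower in BKO were 8 members (20%), against 4.48% of all detected genes. These were the guanylate-binding proteins Gbp7, Gbp3 and Gbp2, the related GTPase Igtp, and Ifi202b, Ifit2, Usp18 and Mx2. At least 1.5-fold higher was 1 member, Ifitm5, against 3.52% of all detected genes. At least 2-fold lower was Gbp7 alone, by 1 of its 2 detected probes, and no member was at least 2-fold higher. All detected genes gave 0.608% in each direction. Gbp7, Mx2 and Ifitm5 were detected on 1 array, so their measured folds rest on a signal below the limit. With such genes at a bound, taken on the background-corrected scale against the lowest detected signal of the other array, 7 members were at least 1.5-fold lower (Mx2 drops out), against 3.23% of all detected genes. None was then at least 1.5-fold higher, against 2.38%, or at least 2-fold lower, against 0.34%.

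**Figure D1:**
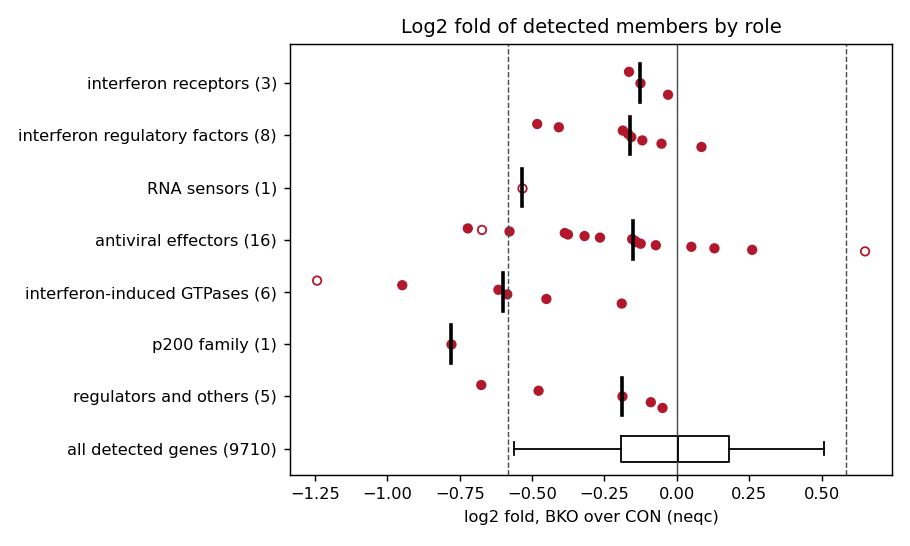
Log2 fold (BKO over CON, neqc scale) of each detected member, grouped by role, with open points for genes detected on 1 array, black bars for medians and broken lines at 1.5-fold. The box gives the median, quartiles and, as whiskers, the percentiles 5 and 95 of all detected genes. The GTPases all lie below 0, from -1.24 to -0.19, while receptors and regulatory factors lie within 1.5-fold of 0.

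The count rests partly on dim probes. Among the 36 members detected on both arrays, 32 were below 0 against 49.1% of the 9057 genes of that kind, and 6 were at least 1.5-fold lower against 3.12%. In the authors' own normalized intensities, whose medians of 169.9 in BKO and 170.0 in CON stay close to the non-normalized ones, 35 of 40 members were again below 0, while only Gbp3 was at least 1.5-fold lower, against 0.772% of all detected genes. Among single probes, 55 of the 67 detected member probes were below 0 (82.1%), against 48.6% of all detected probes. Of the 19 members with more than 1 detected probe, 11 had all probes below 0, none had all above 0, and 8 had probes on both sides. Just inside the detection limit stood Oasl2 (its dimmer probe) at 178.5 in BKO and Irf1 (its dimmest probe) at 184.1 in CON, and just outside stood Oas1c at 176.3 in BKO and Ifna1 at 180.0 in CON.

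**Figure D2:**
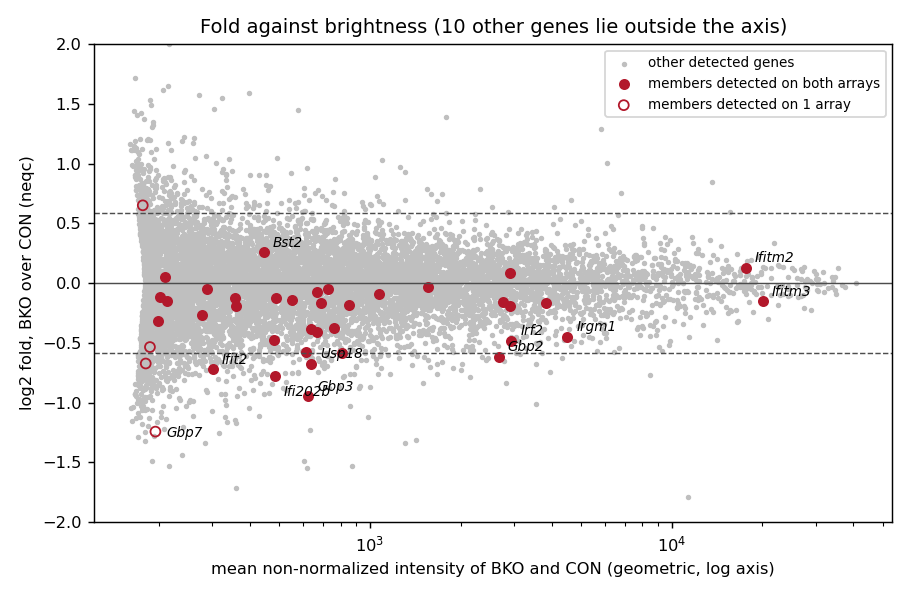
Log2 fold (BKO over CON, neqc scale) against mean non-normalized intensity of the 2 arrays (log axis) for the members (red, open where detected on 1 array) and all other detected genes (grey), with broken lines at 1.5-fold. Dim genes scatter widely, Gbp7 lies among them, and Gbp2 and Gbp3 lie at intensities where the grey points are narrower.

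None of the 18 interferon ligand genes that the rule takes was detected. Their brightest probes lay between 135.7 and 174.9 in BKO and between 137.7 and 180.0 in CON. Ifnb1 read 150.2 in BKO and 148.5 in CON. Ifng, the type II interferon, read 153.0 in BKO and 145.3 in CON. Ifnk, a type I interferon made by keratinocytes, read 135.7 in BKO and 153.3 in CON. All of these are below the detection limits, so no difference can be read for them. A further probe, listed under a provisional symbol outside the rule and now assigned to Ifna6, read 267.6 in BKO and 284.8 in CON and was detected on both arrays (0.04, but -0.09 without normalization), while the Ifna6 probe inside the rule was detected on neither.

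Receptor genes showed small differences. Ifngr1, the ligand-binding chain for interferon gamma, read 1439 in BKO and 1690 in CON (log2 fold -0.03). Its partner Ifngr2 read 616 in BKO and 773 in CON (-0.17), with 3 probes from -0.35 to 0.03. Ifnar2, a chain of the type I receptor, read 331 in BKO and 385 in CON (-0.13), with its other detected probe at 0.16. The 3 detected receptor genes therefore had a median of -0.13, and the other type I chain, Ifnar1, was detected on neither array.

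All 8 interferon regulatory factors with a file symbol in the rule were detected. Of these, 7 were below 0 (87.5%, against 49.3% of all detected genes), and none reached 1.5-fold. Irf2, which competes with Irf1 for the same sites and mostly represses them, read 2341 in BKO and 3700 in CON, 1.40-fold lower (-0.48). Irf5, a factor of myeloid cells downstream of Toll-like receptors, read 559 in BKO and 798.2 in CON (-0.41). These were the lowest members of a group whose median was -0.16. Irf9, the DNA-binding subunit of the complex that type I interferons activate, read 754 in BKO and 969 in CON (-0.19) by its brighter probe. Its other probe read 324 in BKO and 483 in CON (-0.64). Irf1, an activator induced by interferon gamma, read 3389 in BKO and 4317 in CON (-0.17), and all 5 of its probes were below 0, from -0.55 to -0.03. Irf7, the inducible factor that amplifies type I interferon production, was close to the detection limit, at 194.2 in BKO and 209.0 in CON (-0.12). Irf4, a lymphocyte and dendritic cell factor, read 275 in BKO and 303 in CON (-0.05). Irf3, the constitutive factor that nucleic acid sensors activate, read 2812 in BKO and 3024 in CON. Its log2 fold was 0.09, with 3 probes from -0.04 to 0.23, but -0.01 with median scaling and -0.11 without normalization.

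Of the RNA sensors, Ddx58 (RIG-I) read 173.9 in BKO and 200.2 in CON and was detected in CON alone. It was at least 1.32-fold lower in BKO on the background-corrected scale, and 1.10-fold lower in the authors' intensities. Ifih1 (MDA5) was detected on neither array.

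Antiviral effectors were mixed. Of 25 genes, 16 were detected, 12 of them below 0 (75%, against 49.3% of all detected genes), and the median was -0.15. Ifit2, which binds RNA and restrains translation, read 252 in BKO and 362 in CON, 1.65-fold lower (-0.72), and its other probe was at -0.38. Ifit3, a partner of the same family, read 638 in BKO and 908 in CON (-0.38), and of its 3 probes the highest was at 0.12. Oas2, an enzyme whose product activates RNase L, read 490.4 in BKO and 768 in CON, 1.49-fold lower (-0.58). Oasl2, of the same family, read 537 in BKO and 759.7 in CON (-0.39). These IFIT and OAS family genes were the effectors detected on both arrays with the lowest folds. Mx2, a dynamin-like antiviral GTPase, read 167.2 in BKO and 195.3 in CON and was detected in CON alone. It was at least 1.23-fold lower in BKO on the background-corrected scale, and 1.12-fold lower in the authors' intensities. Isg20, an exonuclease, read 187 in BKO and 210.2 in CON (-0.32), near the limit on both arrays.

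The IFITM proteins, which block virus entry at membranes, lay on both sides of 0. Ifitm3 read 18394 in BKO and 21783 in CON (-0.15), whereas Ifitm2 read 17997 in BKO and 17304 in CON (0.13). Both are among the brightest genes on the arrays, and both differences are small. Ifitm6 read 444 in BKO and 535 in CON (-0.12). Ifitm1 read 255 in BKO and 304 in CON (-0.27) by its brightest probe, but a dimmer probe read 238.6 in BKO and 194.0 in CON (0.97), so its probes disagree. Ifitm5, which is best known from bone, read 185.3 in BKO and 168.4 in CON and was detected in BKO alone. It was at least 1.19-fold higher in BKO on the background-corrected scale, and 1.11-fold higher in the authors' intensities. Bst2 (tetherin), which holds budding virus at the cell surface, read 448 in BKO and 443 in CON (0.26, and 0.02 without normalization). The Oas1 genes are close copies whose probes may share signal. Oas1g, Oas1f and Oas1d were detected, with log2 folds of -0.14, -0.07 and -0.15. Oasl1 read 206.1 in BKO and 213.8 in CON by its brightest probe (0.05, but -0.03 with median scaling and -0.05 without normalization), while another probe read 173.8 in BKO and 235.7 in CON (-1.13). The other 9 effectors, Mx1, Ifit1, Ifitm7, Oas3, Oas1a, Oas1b, Oas1c, Oas1e and Oas1h, were detected on neither array.

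**Figure D3:**
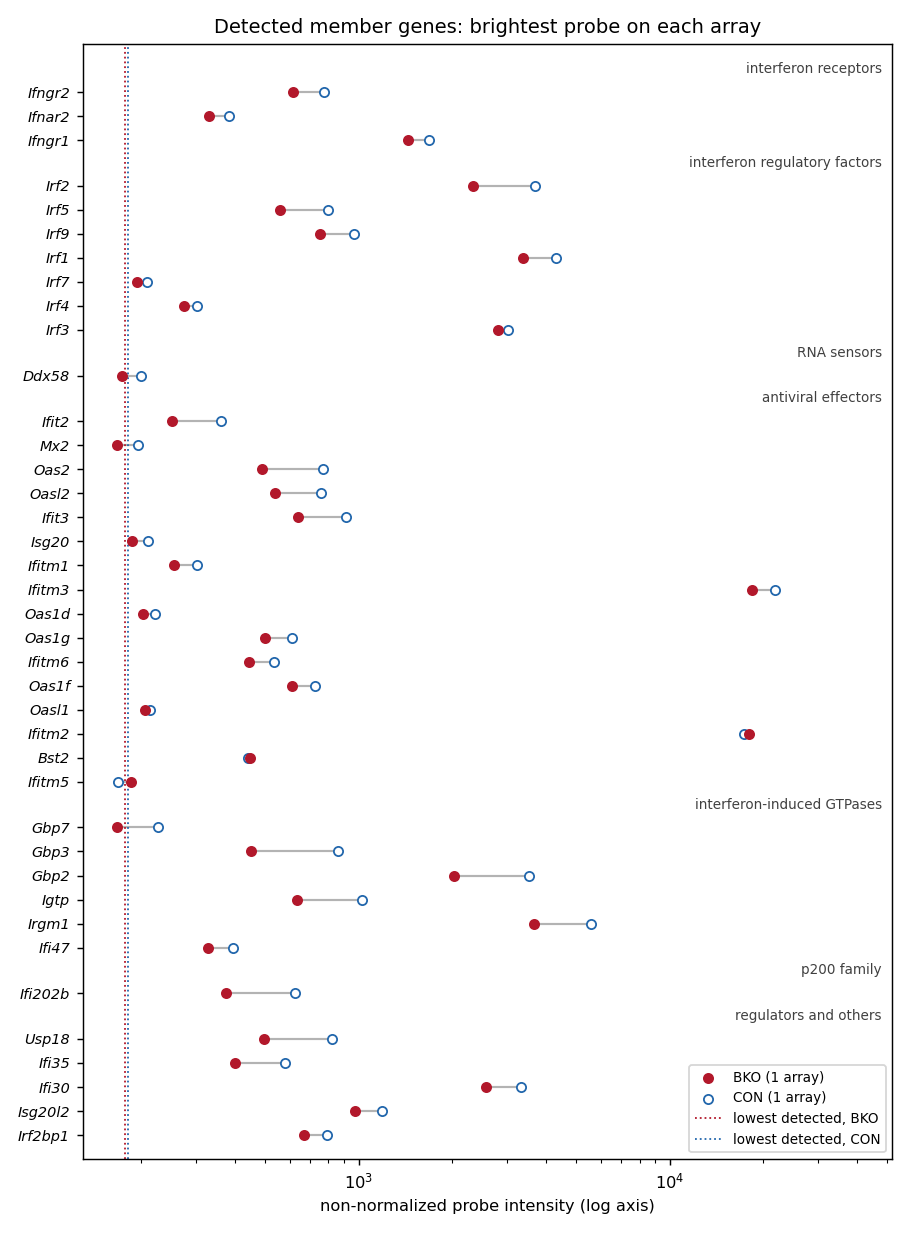
Non-normalized intensity (log axis) in BKO and CON of 39 detected members, as filled points for BKO and open points for CON, with dotted lines at the detection limits. Intensities run from near the limit (Mx2, Ddx58, Ifitm5) to 18394 in BKO and 21783 in CON for Ifitm3. Most members lie lower in BKO, as do 78.4% of all detected genes without normalization.

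The interferon-induced GTPases had the lowest median of the role groups with more than 1 detected gene. They include guanylate-binding proteins (Gbp) and immunity-related GTPases (Irgm1, Igtp, Ifi47), which gather on the vacuoles of intracellular pathogens and are induced strongly by interferon gamma. Of 9 genes, 6 were detected, and all 6 were below 0, against 49.3% of all detected genes. At least 1.5-fold lower were 4 (66.7%, against 4.48%), and the median was -0.60 (-0.47 in the authors' normalized intensities). Gbp3 read 452 in BKO and 862 in CON, 1.93-fold lower (-0.95), and its other probe read 402 in BKO and 722 in CON (-0.88). Gbp2 read 2025 in BKO and 3532 in CON, 1.53-fold lower (-0.62). Igtp read 636 in BKO and 1026 in CON, 1.5-fold lower (-0.59). These genes were well above the detection limit on both arrays. Gbp7 read 166.9 in BKO and 226.8 in CON and was detected in CON alone. By this probe it was at least 1.82-fold lower in BKO on the background-corrected scale, and 1.27-fold lower in the authors' intensities. Its other probe, also detected in CON alone, read 171.8 in BKO and 197.8 in CON (-0.56), short of 1.5-fold. Irgm1 read 3657 in BKO and 5574 in CON, 1.37-fold lower (-0.45), but its dimmer probe was at 0.06. Ifi47 read 329 in BKO and 395 in CON (-0.19). Gbp2b, Gbp5 and Tgtp1 were detected on neither array. Current gene names are used here, and the files list Gbp3 as Gbp4, Gbp7 as Gbp6, Gbp2b as Gbp1 and Irgm1 as Irgm.

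A promoter window is shown for each of the 4 GTPases at least 1.5-fold lower, chosen because it holds a match to the ISRE core. The core (GAAA, any 2 bases, then GAAA) was searched on both strands in RefSeq windows of 300 bases, from 250 bases before to 50 after the start. Windows of Irgm1, which was 1.37-fold lower, and of Ifitm2 and Bst2, which were not lower, follow for comparison, and they hold matches too. Capitals mark the ISRE core or its reverse complement, and each window is written 5′ to 3′ along the gene's strand in build GRCm38.p6. Gbp7 is at chr3:142530086-142530385 (+ strand), Gbp3 at chr3:142559794-142560093 (+ strand) and Gbp2 at chr3:142620413-142620712 (+ strand). Gbp3 has another window, at chr3:142560106-142560405 (+ strand), which holds no match and is not shown. Igtp is at chr11:58199306-58199605 (+ strand), Irgm1 at chr11:48871371-48871670 (- strand), Ifitm2 at chr7:140955912-140956211 (- strand) and Bst2 at chr8:71537423-71537722 (- strand).
Gbp7: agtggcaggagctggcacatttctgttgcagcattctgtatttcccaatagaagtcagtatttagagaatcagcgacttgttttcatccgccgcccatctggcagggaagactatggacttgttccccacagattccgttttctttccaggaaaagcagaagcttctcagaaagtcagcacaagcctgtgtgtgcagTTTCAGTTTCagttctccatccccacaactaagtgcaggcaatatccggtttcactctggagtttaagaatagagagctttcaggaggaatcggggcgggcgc
Gbp3: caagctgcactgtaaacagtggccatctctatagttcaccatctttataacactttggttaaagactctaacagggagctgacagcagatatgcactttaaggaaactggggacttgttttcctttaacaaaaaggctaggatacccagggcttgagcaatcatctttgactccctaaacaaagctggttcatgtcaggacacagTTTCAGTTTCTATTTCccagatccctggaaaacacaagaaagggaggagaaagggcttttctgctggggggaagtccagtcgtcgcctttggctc
Gbp2: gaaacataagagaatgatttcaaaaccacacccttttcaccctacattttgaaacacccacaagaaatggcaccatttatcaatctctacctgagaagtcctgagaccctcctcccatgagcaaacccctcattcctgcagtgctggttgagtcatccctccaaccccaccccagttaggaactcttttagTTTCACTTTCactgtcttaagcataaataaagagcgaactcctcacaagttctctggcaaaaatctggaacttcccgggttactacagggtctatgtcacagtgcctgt
Igtp: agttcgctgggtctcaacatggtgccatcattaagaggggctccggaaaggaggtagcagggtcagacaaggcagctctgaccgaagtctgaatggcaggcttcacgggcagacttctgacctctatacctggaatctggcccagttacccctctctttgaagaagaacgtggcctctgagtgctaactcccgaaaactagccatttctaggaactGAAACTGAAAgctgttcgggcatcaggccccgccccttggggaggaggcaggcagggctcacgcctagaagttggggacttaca
Irgm1: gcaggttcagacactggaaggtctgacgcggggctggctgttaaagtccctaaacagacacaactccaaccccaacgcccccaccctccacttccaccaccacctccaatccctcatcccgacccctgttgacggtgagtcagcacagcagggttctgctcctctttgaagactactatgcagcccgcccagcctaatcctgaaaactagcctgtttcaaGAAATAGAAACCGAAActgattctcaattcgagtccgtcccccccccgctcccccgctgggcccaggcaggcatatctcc
Ifitm2: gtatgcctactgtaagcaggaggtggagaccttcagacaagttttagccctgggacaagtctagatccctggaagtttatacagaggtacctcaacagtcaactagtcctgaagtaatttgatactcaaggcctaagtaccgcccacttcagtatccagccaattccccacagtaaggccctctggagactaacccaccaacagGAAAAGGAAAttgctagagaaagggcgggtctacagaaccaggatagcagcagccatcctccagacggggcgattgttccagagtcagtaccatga
Bst2: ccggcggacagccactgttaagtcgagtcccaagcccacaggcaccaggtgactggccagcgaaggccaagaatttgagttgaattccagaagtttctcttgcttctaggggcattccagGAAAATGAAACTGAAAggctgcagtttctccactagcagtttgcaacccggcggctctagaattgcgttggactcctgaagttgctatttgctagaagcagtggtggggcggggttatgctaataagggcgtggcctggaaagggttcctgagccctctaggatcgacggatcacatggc

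The match nearest the start begins 53 bases before it in Gbp7, 39 in Gbp3, 59 in Gbp2, 34 in Igtp and 24 in Irgm1. In the comparison windows it begins 46 bases before the start in Ifitm2 and 124 in Bst2. The 3 Gbp genes lie on chromosome 3. In Gbp3, Irgm1 and Bst2 the 2 matches overlap each other. The ISRE core occurred in 32 of the 66 members with a RefSeq window (48.5%), against 1079 of 27025 genes with one (3.99%) and 3.44% of all 32851 windows. It occurred in 12 of the 35 detected members with a window (34.3%), against 3.73% of all detected genes with one. Of the members at least 1.5-fold lower, 4 of 6 with a window held it (66.7%), and of the other detected members 8 of 29 (27.6%). The 12 detected members with the ISRE core had a median log2 fold of -0.47, with 10 below 0. The 23 without it had a median of -0.17, with 20 below 0. Members of either kind were thus mostly below 0. Among detected genes outside the member list, the 273 with the core had a median of -0.02 and the 7356 without it 0.01, and 5.49% and 4.27% of them were at least 1.5-fold lower.

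The GAS core TTCNNNGAA, which reads alike on both strands, occurred in 26 of 66 members with a window (39.4%), against 9.55% of genes and 8.3% of windows. It was held by 4 of 6 members at least 1.5-fold lower (66.7%) and by 9 of 29 other detected members (31%). Detected members with it (13) had a median log2 fold of -0.32, and those without it (22) of -0.18. Gbp7 held 2 matches and Igtp held 1, none of them overlapping the ISRE core, while in Bst2 and Ifitm3 a GAS match overlapped an ISRE match. A match is only a run of letters, and no binding was measured.

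Of the p200 family, DNA-binding proteins encoded together on chromosome 1, only Ifi202b was detected among 4 genes. It read 375 in BKO and 625 in CON, 1.72-fold lower (-0.78), and its other probe read 272 in BKO and 514 in CON (-1.22). Ifi203, Ifi204 and Ifi205 were detected on neither array. Members of this family are close copies, so the probes may read more than 1 gene.

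Regulators and remaining members were all below 0 where detected, 5 of 6, while 49.3% of all detected genes were below 0. Usp18, which removes ISG15 from proteins and dampens type I receptor signalling, read 497 in BKO and 822 in CON, 1.60-fold lower (-0.68), and its 3 probes ranged from -0.68 to -0.26. Ifi35 read 402 in BKO and 579 in CON (-0.48). Ifi30, a lysosomal thiol reductase of antigen-presenting cells, read 2559 in BKO and 3318 in CON (-0.19), and its other probe was at 0.0. Isg20l2 and Irf2bp1 were taken in by the start of their symbols, and their folds were -0.09 and -0.05. Without these, Aen (listed as Isg20l1) and Ifitm5, 33 of 37 detected members were below 0 and 8 were at least 1.5-fold lower.

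Several interferon genes carry an older symbol in the files and so fall outside the name rule. Of 25 such genes, 11 were detected, 10 of them below 0 (90.9%, against 49.3% of all detected genes) and 3 at least 1.5-fold lower (27.3%, against 4.48%), with a median of -0.33. Rsad2 (viperin), an antiviral enzyme, read 426 in BKO and 947 in CON, 2.34-fold lower (-1.23). Ifi27l2a read 2668 in BKO and 4724 in CON, 1.60-fold lower (-0.68). Irgm2, a further immunity-related GTPase, read 1095 in BKO and 1868 in CON, 1.52-fold lower (-0.61). Eif2ak2 (PKR), a kinase that double-stranded RNA activates, read 887 in BKO and 1363 in CON (-0.46). Isg15, the ubiquitin-like protein that Usp18 removes, read 503 in BKO and 679 in CON (-0.33). Dhx58, a relative of Ddx58, read 351 in BKO and 459 in CON (-0.33). Ifnlr1, the interferon lambda receptor chain of epithelia, read 469 in BKO and 672 in CON (-0.44). The 1 detected gene of this kind that was not below 0 was the provisional Ifna6 probe.

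Of 102 other genes of the pathway, 93 were on the array and 68 were detected. Of these, 48 were below 0 (70.6%, against 49.3% of all detected genes) and 9 were at least 1.5-fold lower (13.2%, against 4.48%), with 1 at least 1.5-fold higher and a median of -0.24. Cxcl9, a T cell chemokine induced by interferon gamma, read 380.2 in BKO and 957 in CON (-1.49). Cxcl10, its relative, read 196.0 in BKO and 254 in CON (-0.72). Stat2, a subunit of the complex that type I interferons activate, read 268 in BKO and 353 in CON (-0.48), and the kinase Tyk2 read 831 in BKO and 1019 in CON (-0.10). Jak1 and Socs1 were detected on neither array. The other genes of this list with the largest differences were Trim30a (-0.91), Cmpk2 (-0.88), Ccl7 (-0.76), Ciita (-0.76), Epsti1 (-0.66), Aim2 (-0.66) and Ccl5 (-0.60). Nos2, the inducible nitric oxide synthase, read 197.4 in BKO and 170.3 in CON (0.89) and was detected in BKO alone.

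**Figure D4:**
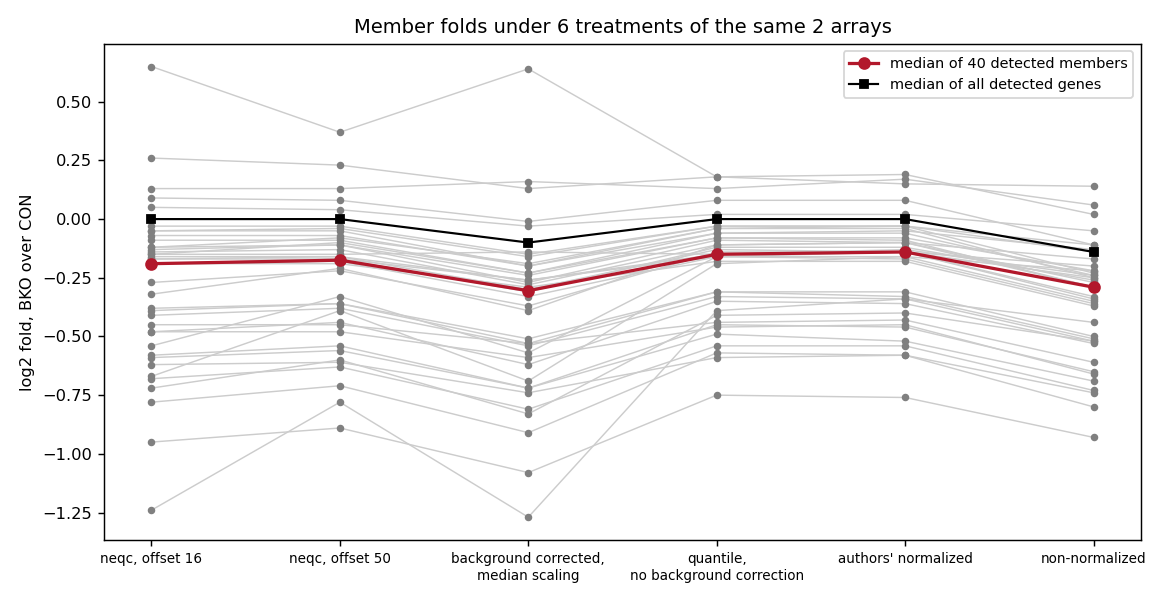
Log2 fold (BKO over CON) of the detected members under 6 ways of processing the intensities, 1 grey point per gene joined by lines, with the median of the members (red) and of all detected genes (black). The median lies below 0 under each processing shown, and the spread is narrower with no background correction and in the authors' intensities.

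Markers of immune cells differed by cell type. Of the Langerhans and dendritic cell markers, 9 of 10 detected genes were below 0 (90%, against 49.3% of all detected genes). The 10 had a median of -0.45, and 4 were at least 1.5-fold lower (40%, against 4.48% of all detected genes). Xcr1, detected in BKO alone, was higher (0.66). The summed normalized intensity of these markers was 32406 in BKO and 42065 in CON. Most of it was Cd74 (14747 in BKO and 18348 in CON) and H2-Ab1 (9819 in BKO and 13416 in CON). Ciita, counted here, is also in the list of other pathway genes, as are Fcgr1 of the macrophage markers and Tlr7 of the plasmacytoid markers below. The marker lists are therefore not fully separate from the pathway. Cd207 (langerin) read 443 in BKO and 748 in CON (-0.74), and Itgax, Flt3 and Ccr7 were detected on neither array. Of the monocyte and macrophage markers, 12 of 13 were below 0 (92.3%, against 49.3%) and 2 at least 1.5-fold lower (15.4%, against 4.48%). Their median was -0.21 and their sum 70141 in BKO and 82705 in CON. The T and NK cell markers summed to 7576 in BKO and 8630 in CON, with 5 of 7 below 0. Most of this sum was Thy1 (6067 in BKO and 6945 in CON). The CD3 subunits Cd3d, Cd3e and Cd3g lay on both sides of 0, at 0.41, 0.09 and -0.45. Xcl1 read 194.4 in BKO and 298.3 in CON (-1.2), the 1 gene of this list at least 1.5-fold lower. Cd4, Cd8a, Gzmb and Klrb1c were detected on neither array. The plasmacytoid dendritic cell markers, whose list includes Bst2, summed to 17529 in BKO and 16901 in CON, with 3 of 7 below 0. Most of that sum was Ly6d, which keratinocytes also express, and without it the sum was 4419 in BKO and 5903 in CON. Most of this remainder was in turn Tcf4 (2948 in BKO and 4421 in CON). Of the 6 genes left without Ly6d, 3 were below 0, and Siglech was at -0.11. Neutrophil markers were higher in BKO, with 0 of 9 below 0, a median of 0.44 and a sum of 60573 in BKO and 47770 in CON. Most of that sum was S100a8 (28697 in BKO and 26091 in CON, log2 fold 0.14) and S100a9 (14997 in BKO and 11686 in CON, 0.36). The keratinocyte markers summed to 125155 in BKO and 121400 in CON. Whether these shifts have a part in the member folds was not tested, and in bulk skin fewer cells of a type and less RNA per cell cannot be told apart.

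The arrays also differed in tissue content and in the animals pooled. Slow muscle markers summed to 15642 in BKO and 1962 in CON, red blood cell markers to 6362 in BKO and 21878 in CON, and Y-linked genes to 212 in BKO and 1055 in CON. With 1 pool per group these differences and the genotype cannot be told apart.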

How the data were processed

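Total RNA of wounded skin, pooled from 3 mice per group, was measured on 1 Illumina bead array per group. The authors deposited probe intensities without normalization and, in a second table, normalized intensities, made by a method that is not given in the labels or headers. The submitters' processing notes name GenomeStudio 2011.1. The deposited detection p-values were not aligned with the intensities (Spearman's rho over all probes was -0.000406 in BKO and 0.00244 in CON), so sorted p-values were set against sorted intensities to find each array's detection limit. The background correction also rests on these reassigned p-values, in place of control probe values.

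The non-normalized intensities were corrected for background (normexp, offset 16), quantile normalized and log2 transformed with limma 3.58.1 (R 4.3.3), here called the neqc scale. The steps were tried on simulated data that changed only probes well above background, so dim genes such as Gbp7 and Mx2 were not covered. The brightest probe stood for a gene. A gene counted as lower or higher where the arrays differed by at least 1.5-fold and at least 1 array detected it. A gene detected on 1 array has a bound only, set against the lowest detected intensity of the other array. Symbols were updated through RefSeq tables for 25376 probes. Any detected member could be named, and of the other pathway list 7 core genes and the 8 further genes with the largest difference.

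The members, gene lists and alternatives were chosen with earlier results of these data known. With 1 array per group, the number of arrays limits the precision. No probe sequences were used here. The values of 1 member and 1 other pathway gene are not reported here, though the counts and medians include them.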

Additional observations from a re-analysis of the deposited data

How the results depend on the processing

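No paired analysis was possible because each group has 1 array. Here the share of all genes counted under the same setting stands in brackets. The members at least 1.5-fold lower in BKO numbered 8 as reported (4.48%), 11 with median scaling (7.1%) and 8 without normalization (3.15%). The 8 without normalization include Oas2, Irf2 and Irgm1 in place of Gbp7, Ifit2 and Mx2. With an offset of 50 they numbered 6 (1.82%), among genes detected on both arrays 6 (3.12%), and without a detection filter 12 (3.3%). They numbered 1 in the authors' normalized intensities (0.772%) and 2 with quantile normalization and no background correction (0.73%). With the mean of a gene's probes they numbered 5 (4.31%). Members at least 1.5-fold higher numbered 0 in place of 1, and members at least 2-fold lower 0 in place of 1, in the authors' intensities, with no normalization, with no background correction, with an offset of 50 and for genes that both arrays detected. At least 2-fold lower were 2 members with median scaling and 2 with no filter. Members below 0 numbered 35 of 40 as reported, from 34 to 37 under the alternatives that keep these 40 genes, 54 of 76 with no filter (49.1% of all genes) and 55 of 67 counted as probes. The members' median was -0.30 with median scaling and -0.29 without normalization, where the medians of all detected genes were -0.10 and -0.14, with 65.6% and 78.4% of them below 0. Of the 40 members, 35 and 33 lay below those medians.

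Other pathway genes at least 1.5-fold lower numbered 2 in the authors' intensities (0.772% of all detected genes), 2 with no background correction (0.73%) and 5 with an offset of 50 (1.82%). Those higher numbered 0 under these settings, without normalization and for genes that both arrays detected. The list's median was -0.37 with median scaling. With median scaling the medians were -0.24 for receptors, -0.27 for effectors and -0.29 for regulators and others, and without normalization -0.23 for receptors, -0.35 for regulatory factors and -0.37 for regulators and others. Ddx58, the only detected sensor, was at -0.14 in the authors' intensities, -0.20 with no normalization, -0.16 with no background correction and -0.33 with an offset of 50. With no filter the medians were -0.20 for sensors, -0.22 for the p200 family and -0.33 for regulators and others, since undetected genes then enter. No role median and no called gene changed sign under these alternatives. Of 69 values of the 9 called genes under alternatives, 46 stayed past 1.5-fold.

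Folds shrink where background correction is left out, by construction, and dim Gbp7 was at -0.34 in the authors' intensities. Some alternatives were chosen after seeing the data, namely taking genes detected on 1 array at their bound (7 members at least 1.5-fold lower, 0 higher and 0 at least 2-fold lower), counting probes singly, adding the 11 detected genes that meet the rule by current name only (11 genes lower in all) and keeping the 27 members at 400 or brighter on either array. Of those 27, 24 were below 0 and 5 at least 1.5-fold lower, against 2.55% of the 6035 genes of that brightness. With 1 array per group, the difference between pools of animals was not measured. The cause of the differences between settings other than those named was not tested.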
